A study of Bos taurus with 96 samples.

Results

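PGAM2 (ENSBTAG00000014547), ENO3 (ENSBTAG00000005534), PKM2 (ENSBTAG00000001601), LDHA (ENSBTAG00000008683) and GPD1 (ENSBTAG00000016296) encode enzymes of the last steps of glycolysis and of its side branches in skeletal muscle. They were taken by identifier, as 5 of the 24616 genes in the count files, and all 5 passed the filter on low counts in muscle. In muscle the transcripts of all 5 fell from late pregnancy to early lactation, by between 1.94-fold and 3.78-fold, and rose again by between 2.46-fold and 5.20-fold to mid lactation.

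The samples were muscle and liver biopsies of 16 Holstein cows taken in late pregnancy (LP), early lactation (EL) and mid lactation (ML), sequenced as polyA RNA in 96 libraries, 48 per tissue. The cows carried either good (Fert+, n = 8) or poor (Fert-, n = 8) genetic merit for fertility, a grouping by estimated breeding value for calving interval and not by a known allele. The same cows were biopsied before calving at LP and after calving at EL and ML, so pregnancy and lactation state changed with the time-point. No group of cows without pregnancy and calving was sampled for comparison. A biopsy holds every cell type of the tissue, and fewer cells of a type and less RNA per cell cannot be told apart in these data.

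Glycolysis breaks glucose or glycogen-derived sugar phosphate down to pyruvate in the cytosol, and fast-contracting skeletal muscle fibres carry large amounts of its enzymes. PGAM2 is the muscle form of phosphoglycerate mutase, ENO3 the muscle form of enolase, and pyruvate kinase, named PKM2 in the study's tables, makes pyruvate. LDHA is the lactate dehydrogenase subunit that predominates in fast muscle and interconverts pyruvate and lactate. GPD1 is the cytosolic glycerol 3-phosphate dehydrogenase, which draws on the triose phosphates of the pathway and links them to glycerol lipid synthesis and to the transfer of reducing equivalents into mitochondria. Counts were per gene, so splice forms of pyruvate kinase were not separated.

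Libraries held between 15279337 and 22018740 read pairs counted to genes in muscle and between 14966847 and 26358063 in liver. Levels below are CPM, counts brought to a common library size within each tissue with TMM (trimmed mean of M values) factors and not divided by gene length, so they compare libraries and not genes. The muscle factors had a median of 0.931 at LP, 1.21 at EL and 0.887 at ML, and scaling by library totals instead moved the median log2 change of all genes by 0.36 from LP to EL and by -0.42 from EL to ML. Altogether 13 libraries stood apart by at least 50 counts on 11 or more of 19 genes whose median count was at most 2 in each tissue. The other libraries reached 50 counts on at most 3 of these genes. Of the libraries that stood apart, the 5 in muscle all came from the Fert- cows 164 and 419. The fits were also run without the libraries that stood apart, and the comparison between tissues without the cows that had one at LP or EL. Correlations, ratio changes and ranges of cows were computed with all libraries only. ACTA1, CKM, TTN, NEB, DES and MB, which mark skeletal muscle, were counted in the muscle libraries, where their summed level was never below 30400 CPM.

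PGAM2 ran from 796 CPM to 2224 CPM at LP with a median of 1238, from 63.5 CPM to 824 CPM at EL with a median of 313, and from 901 CPM to 2710 CPM at ML with a median of 1738 (n = 16 cows each). At EL it lay below the lowest LP value in 14 of 16 cows and below the lowest ML value in 16 of 16. The change from LP to EL was a log2 fold change of -1.92 (SE 0.17, adjusted p 8.07e-11), and PGAM2 was lower at EL in all 16 cows.

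ENO3 converts the product of PGAM2 into phosphoenolpyruvate. It ran from 4366 CPM to 10171 CPM at LP with a median of 6232, from 778 CPM to 7158 CPM at EL with a median of 2521, and from 6959 CPM to 11939 CPM at ML with a median of 8261. The EL and LP values overlapped, with 10 of 16 cows at EL under the lowest LP value. The log2 fold change from LP to EL was -1.14 (SE 0.16, adjusted p 2.30e-07), with 15 of 16 cows lower at EL.

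PKM2 turns phosphoenolpyruvate into pyruvate. It ran from 3667 CPM to 7018 CPM at LP with a median of 4887, from 601 CPM to 7005 CPM at EL with a median of 2243, and from 4394 CPM to 9624 CPM at ML with a median of 6111. Of the 5 transcripts it had the smallest fitted fall, a log2 fold change of -0.96 (SE 0.17, adjusted p 1.04e-05), and 15 of 16 cows were lower at EL. The exception for ENO3 and PKM2 was the same Fert+ cow, 782, in which ENO3 went from 5351 CPM to 6766 CPM and PKM2 from 4298 CPM to 6072 CPM.

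LDHA ran from 899 CPM to 2646 CPM at LP with a median of 1487, from 69.0 CPM to 1081 CPM at EL with a median of 374, and from 856 CPM to 2306 CPM at ML with a median of 1671. It was lower at EL in 16 of 16 cows, though in cow 782 the values were 1061 CPM at LP and 1055 CPM at EL. The log2 fold change from LP to EL was -1.86 (SE 0.20, adjusted p 3.37e-09).

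GPD1 ran from 551 CPM to 1171 CPM at LP with a median of 811, from 36.7 CPM to 518 CPM at EL with a median of 233, and from 558 CPM to 1243 CPM at ML with a median of 976. Its EL values overlapped neither the LP nor the ML values, since every cow at EL lay under the lowest cow of both. The log2 fold change from LP to EL was -1.90 (SE 0.18, adjusted p 4.30e-10).

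All 5 enzymes were thus called lower at EL by edgeR's quasi-likelihood test with each cow as a block, where 27.6% of the 12675 muscle genes tested were called lower. Between 0.379% and 3.86% of the tested genes had a lower log2 fold change than these enzymes. Scaling by library totals left all 5 called, with log2 fold changes between -0.62 for PKM2 and -1.58 for PGAM2, although only 8.82% of all genes were then called lower. Without the 5 muscle libraries that stood apart the fall was between 1.01 and 1.97 on the log2 scale (log2 fold changes of -1.01 for PKM2 and -1.97 for GPD1). The 5 transcripts together made up a median of 1.38% of a muscle library at LP, 0.689% at EL and 1.74% at ML.

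**Figure D1:**
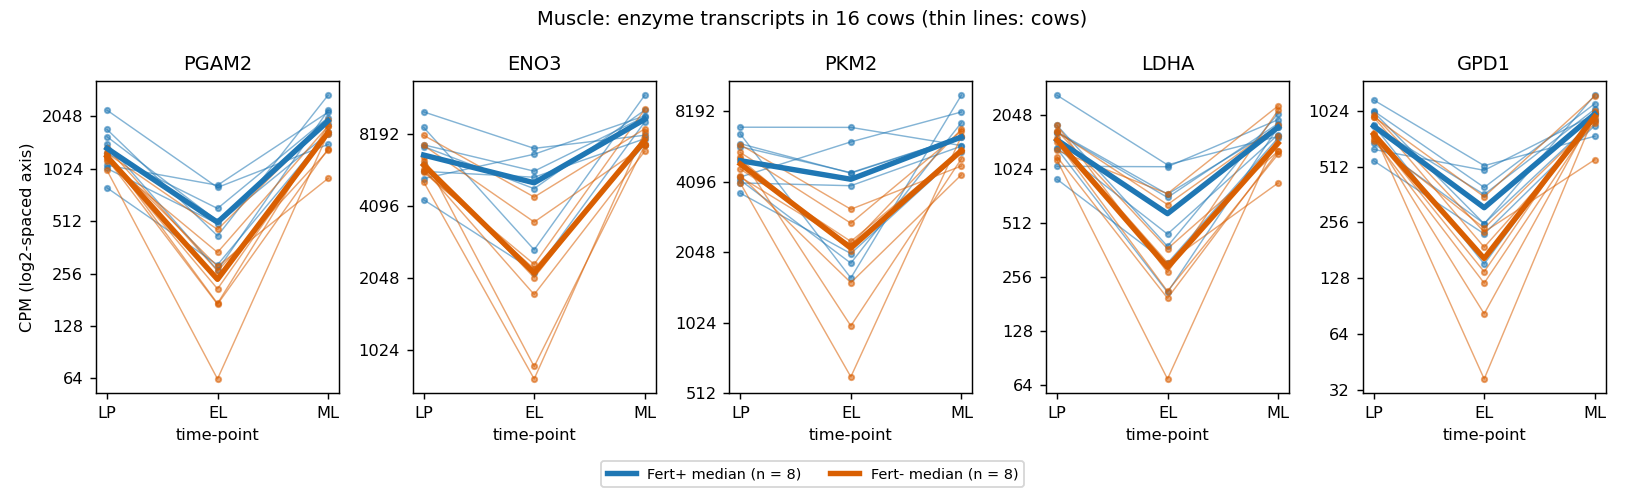
Level of each enzyme transcript in muscle (CPM, log2-spaced vertical axis) at LP, EL and ML, with a thin line for each of the 16 cows and a thick line for the median of each genotype (n = 8). Every panel dips at EL, where the cows are also farthest apart, and GPD1 at EL lies below all of its LP and ML values.

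All 5 enzymes rose from EL to ML, where 31.7% of the genes tested were called higher. With library totals all 5 were still called, while 10.1% of genes were called higher. PGAM2 rose by 2.38 on the log2 scale (SE 0.17, adjusted p 4.57e-13), GPD1 by 2.14 (SE 0.18, adjusted p 2.22e-11) and LDHA by 2.01 (SE 0.20, adjusted p 4.12e-10). ENO3 rose by 1.56 (SE 0.16, adjusted p 4.19e-10) and PKM2 by 1.30 (SE 0.17, adjusted p 5.58e-08). The rise was seen in 16 of 16 cows for PGAM2, ENO3, LDHA and GPD1 and in 15 of 16 for PKM2, the exception being cow 430.

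None of the 5 passed the threshold between ML and LP, where 9.38% of the genes tested did. The log2 fold changes were all positive, at 0.46 for PGAM2 (SE 0.16, adjusted p 0.0619), 0.42 for ENO3 (SE 0.15, adjusted p 0.0745), 0.34 for PKM2 (SE 0.16, adjusted p 0.190), 0.23 for GPD1 (SE 0.17, adjusted p 0.424) and 0.16 for LDHA (SE 0.19, adjusted p 0.657). The unadjusted values of the same fit were 0.00670 for PGAM2, 0.00900 for ENO3 and 0.0430 for PKM2. ML was above LP in 13 of 16 cows for PGAM2, PKM2 and GPD1, in 14 for ENO3 and in 12 for LDHA. Leaving out cow 430 put PGAM2 (adjusted p 0.0268) and ENO3 (adjusted p 0.0486) past the threshold, leaving out cow 996 did so for PGAM2 (adjusted p 0.0420), and DESeq2, which called 11% of genes, called PGAM2 (adjusted p 0.0366).

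The within-cow change from LP to EL was compared between the enzymes in all 10 pairs with exact two-sided sign-flip tests over 16 cows, a comparison chosen after the values were seen. A change in the ratio of 2 transcripts of 1 library does not depend on the scaling factor. PGAM2, LDHA and GPD1 did not differ detectably from each other, with mean differences in log2 change between -0.05 and 0.05 and unadjusted p between 0.511 and 0.900. PGAM2 fell further than ENO3 by a mean of 0.77 on the log2 scale (SD 0.42, further in 15 of 16 cows, exact p 6.10e-05) and further than PKM2 by 0.94 (SD 0.48, 15 of 16 cows, exact p 6.10e-05), taken as log2 ratio changes of -0.77 and -0.94. LDHA and GPD1 differed from ENO3 and PKM2 in the same direction, with exact p between 6.10e-05 and 0.000336. ENO3 fell further than PKM2 in 12 of 16 cows, with a log2 ratio change of -0.17 (SD 0.23, unadjusted exact p 0.0132).

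The cows were much farther apart at EL than at the other time-points. The highest cow was between 9.21-fold and 15.7-fold above the lowest at EL, against 1.91-fold to 2.94-fold at LP and 1.72-fold to 3.01-fold at ML. Cow 1179 (Fert-) was the lowest of the 16 at EL for all 5 enzymes. In that cow PGAM2 went from 1004 CPM at LP to 63.5 CPM at EL and 1632 CPM at ML, and GPD1 from 779 CPM to 36.7 CPM and 974 CPM. Its 1544 counts of PGAM2 and 892 counts of GPD1 at EL leave a counting error that is small beside these differences. Cow 430 (Fert+) was the highest at EL for ENO3, PKM2, LDHA and GPD1, and cow 782 (Fert+) for PGAM2. In cow 430 PKM2 was 7018 CPM at LP and 7005 CPM at EL, so its transcript hardly moved while GPD1 went from 1171 CPM to 518 CPM.

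The enzymes ordered the cows alike at EL. Across the 16 cows Pearson's r between 2 enzymes on log2(CPM + 1) ran from 0.83 to 0.97 over the 10 pairs at EL (Spearman's rho 0.77 to 0.98). All 16 cows together include the genotype difference at EL by which the study named the enzymes. These values are therefore a description, and no p is given for them. Leaving out the 2 cows farthest from the median of the first enzyme gave r between 0.67 and 0.95. Within Fert+ cows r at EL was between 0.88 and 0.99 and within Fert- cows between 0.72 and 0.98 (n = 8 each, no test). At LP r ran from 0.77 to 0.95 and at ML from 0.61 to 0.90 (permutation p at most 0.000600 and 0.00969), and 0.62 to 0.92 and 0.36 to 0.85 without the 2 farthest cows. Within Fert- cows the lowest r was 0.36 at LP and 0.43 at ML, and within Fert+ cows 0.86 and 0.71. The enzymes of a library share its scaling factor. The level of an enzyme at LP was not detectably related to its level in the same cow at EL, with r between 0.27 and 0.43 (rho 0.27 to 0.39, 5 relations, permutation p between 0.0918 and 0.310, adjusted 0.205 to 0.310). Without the 2 farthest cows those values were between 0.19 and 0.32. Within genotypes, whose levels at EL were not the same, r was between 0.28 and 0.42 in Fert+ cows and between 0.47 and 0.69 in Fert- cows (n = 8 each, no test).

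**Figure D2:**
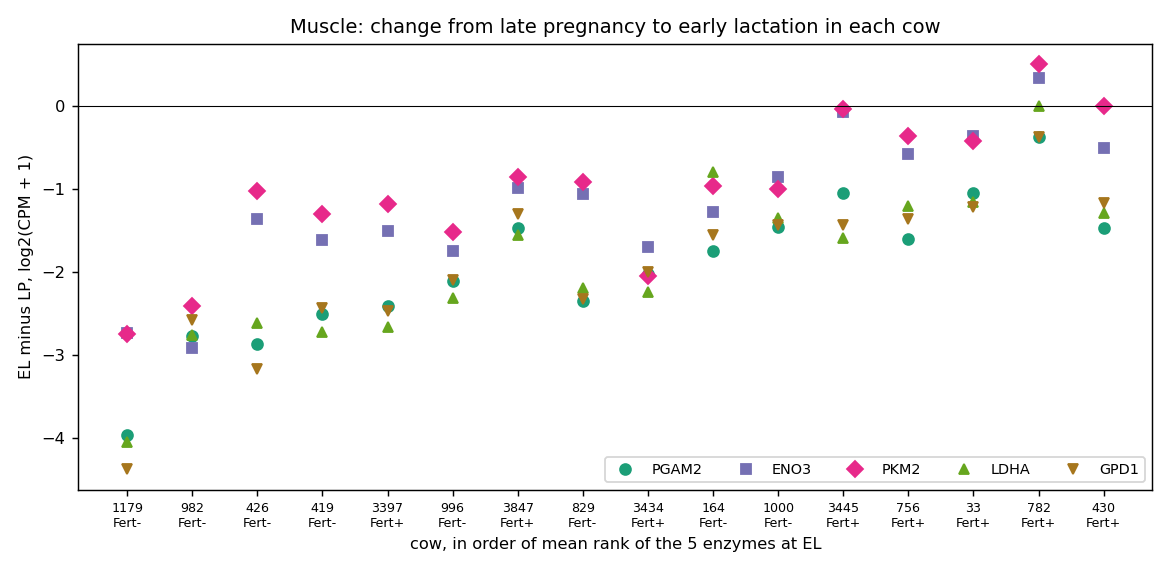
Change from LP to EL in each cow's muscle, as the difference in log2(CPM + 1), for the 5 enzymes, with the 16 cows ordered by their mean rank over the enzymes at EL. Cow 1179 has the lowest value for PGAM2, PKM2, LDHA and GPD1 and cow 982 for ENO3, PGAM2, LDHA and GPD1 mostly lie below ENO3 and PKM2, and ENO3 and PKM2 lie above 0 in cow 782.

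The study named these enzymes from the difference between genotypes in muscle at EL, so that difference describes how they were chosen and is no independent evidence. At EL PGAM2 ran from 268 CPM to 824 CPM in Fert+ cows with a median of 505, and from 63.5 CPM to 459 CPM in Fert- cows with a median of 237. GPD1 ran from 153 CPM to 518 CPM in Fert+ cows with a median of 308, and from 36.7 CPM to 352 CPM in Fert- cows with a median of 164. The genotypes overlapped for all 5 enzymes, with 5 of 8 Fert+ cows above every Fert- cow for PGAM2, ENO3 and PKM2, 4 for GPD1 and 2 for LDHA.

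For ENO3 the median at EL was 5139 CPM in the Fert+ group and 2154 CPM in the Fert- group. The corresponding medians of PKM2 were 4204 CPM and 2141 CPM, and those of LDHA 577 CPM and 289 CPM. The log2 fold changes of Fert+ relative to Fert- were 1.10 for PGAM2 (SE 0.32, adjusted p 0.222), 1.03 for ENO3 (SE 0.36, adjusted p 0.280), 1.01 for PKM2 (SE 0.35, adjusted p 0.281), 0.92 for GPD1 (SE 0.36, adjusted p 0.331) and 0.80 for LDHA (SE 0.42, adjusted p 0.466). None passed the quasi-likelihood test at EL, where 1 of 12035 genes (0.00831%) did. Before adjustment p was 0.00321 for PGAM2, 0.00998 for PKM2, 0.00973 for ENO3, 0.0197 for GPD1 and 0.0745 for LDHA.

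That call depended on the test. The edgeR exact test with 1 common dispersion called all 5, where 3.64% of genes were called. A genotype fit over the 48 muscle libraries, with no term for the cow, called 4 of 5 (not LDHA), where 4.47% were called. DESeq2 called PGAM2 alone, where 0.989% were called. Without the libraries that stood apart, which at EL were 2 of the Fert- group, the log2 fold changes were between 0.98 and 1.16 and none passed.

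At LP the genotype difference was between 0.03 and 0.20 on the log2 scale and at ML between 0.07 and 0.33, with adjusted p of 0.840 or more and 0.627 or more. The quasi-likelihood test called 0 genes at LP and 0 at ML in muscle, with 800 and 917 at an unadjusted p under 0.05, while DESeq2 called 27 and 10 and the exact test with 1 common dispersion 214 and 214. The time-point fit over the 48 muscle libraries, with each cow as a block, held a genotype by time term. By it the genotype difference was larger at EL than at LP by between 0.86 (LDHA) and 1.01 (GPD1) on the log2 scale. Adjusted p was between 0.216 and 0.385, so none of the 5 passed, where 0.0158% of genes did. Without the libraries that stood apart the term was between 1.03 and 1.15, with adjusted p between 0.205 and 0.260. That term contains the EL difference by which the enzymes were named, so it too is a description of how they were chosen. Both genotypes fell from LP to EL. PGAM2 was lower at EL in 8 of 8 Fert+ cows, by a mean of -1.43 in log2(CPM + 1) (SD 0.63), and in 8 of 8 Fert- cows, by a mean of -2.47 (SD 0.77).

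PGAM2 was close to absent from liver, with at most 6 counts in a library, and was removed by the filter on low counts there. ENO3 had a median of 5.19 CPM at LP, 4.34 CPM at EL and 5.59 CPM at ML, whereas its lowest muscle value was 778 CPM. PKM2 had a median of 22.1 CPM, 21.7 CPM and 28.9 CPM, and LDHA of 34.3 CPM, 40.8 CPM and 16.1 CPM. GPD1, which liver uses in glycerol lipid synthesis, was the exception, with medians of 369 CPM, 271 CPM and 277 CPM in liver.

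The ratio of the muscle to the liver median for GPD1 was therefore 2.20 at LP, 0.861 at EL and 3.52 at ML, with CPM scaled separately in each tissue. Muscle was higher than liver in all 16 cows at LP and at ML, and in 7 of 16 at EL.

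None of the 4 enzymes tested in liver passed the threshold from LP to EL in the fit, where 3.07% of 13815 liver genes were called. The lowest unadjusted p of the fit was 0.0320, for ENO3. The log2 fold changes were 0.12 for PKM2 (SE 0.12), -0.24 for ENO3 (SE 0.11), 0.24 for LDHA (SE 0.23) and -0.25 for GPD1 (SE 0.15), with adjusted p between 0.188 and 0.619. ENO3 was lower at EL than at LP in 8 of 8 Fert+ cows, by a mean of -0.41 in log2(CPM + 1) (SD 0.25), and in 3 of 8 Fert- cows. That difference between the genotypes did not pass (genotype by time log2 difference -0.53, SE 0.22, adjusted p 0.371). LDHA then fell in liver from EL to ML with a log2 fold change of -1.37 (SE 0.23, adjusted p 6.08e-05), in 16 of 16 cows, while it rose in muscle. PKM2 was higher at ML than at EL in liver (log2 fold change 0.32, SE 0.12, adjusted p 0.0385) and than at LP (0.44, SE 0.12, adjusted p 0.0168), and ENO3 higher at ML than at EL (0.30, SE 0.11, adjusted p 0.0264). These small liver changes were lost in some refits: PKM2 from LP to ML without the libraries that stood apart (adjusted p 0.0878), and PKM2 (adjusted p 0.0968) and ENO3 from EL to ML without the cow as a block. PKM2 also lost its call from EL to ML with no gene filter (adjusted p 0.0530) and without the libraries that stood apart (adjusted p 0.0581). LDHA at ML was also below its LP level in liver (log2 fold change -1.13, SE 0.24, adjusted p 0.00190). In liver 41.8% of genes were called between EL and ML and 15.9% between LP and ML. No enzyme passed the quasi-likelihood test between genotypes in liver at any time-point, where 0 genes did at LP, EL and ML (842, 1530 and 1640 at an unadjusted p under 0.05, and 0, 6 and 77 by DESeq2). ENO3 was closest, with log2 fold changes of -0.62 (SE 0.24, adjusted p 0.386) at EL and -0.35 (SE 0.13, adjusted p 0.306) at ML.

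**Figure D3:**
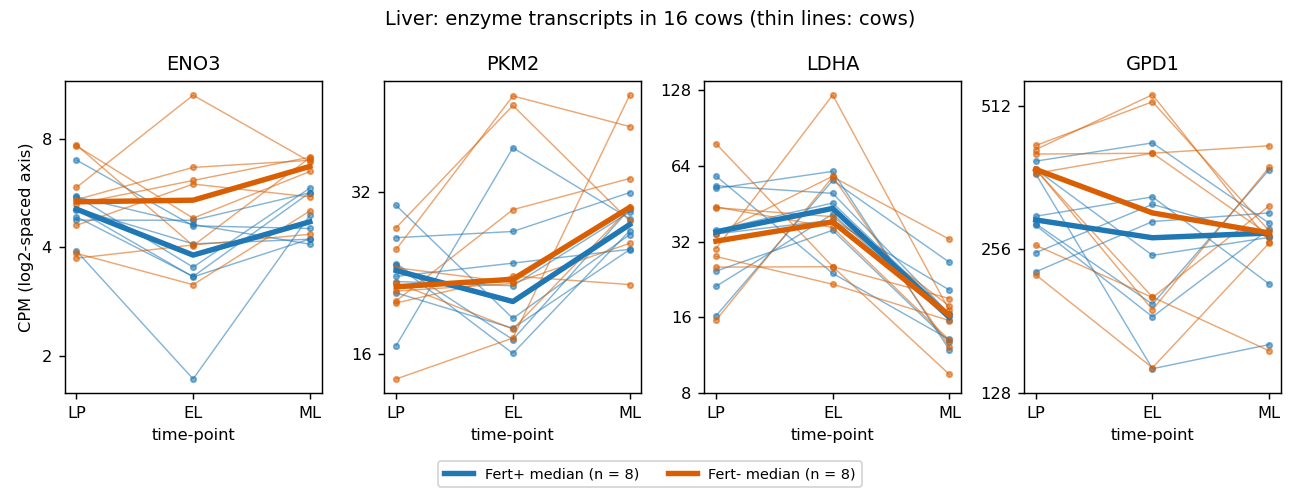
Level of ENO3, PKM2, LDHA and GPD1 in liver (CPM, log2-spaced vertical axis, a separate range per panel) at LP, EL and ML, with a thin line per cow (n = 16) and the median of each genotype as a thick line. LDHA drops from EL to ML in every cow, and the Fert+ medians of ENO3 and PKM2 are lowest at EL.

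The change from LP to EL in muscle was set against that in liver of the same cow with exact two-sided sign-flip tests over 16 cows, 5 tests in all. The muscle change was lower by 1.93 in log2(CPM + 1) for PGAM2 (difference -1.93, SD 0.90, lower in 16 of 16 cows, exact p 3.05e-05), though a liver transcript near 0 has little room to change. For LDHA the difference was -2.21 (SD 1.43, 16 of 16 cows, exact p 3.05e-05), and 3.05e-05 is the smallest p that 16 cows can give. It was -1.69 for GPD1 (SD 1.23, 15 of 16 cows, exact p 0.000153), -1.12 for PKM2 (SD 1.09, 12 of 16 cows, exact p 0.00110) and -0.98 for ENO3 (SD 1.14, 13 of 16 cows, exact p 0.00299). Cows with a larger fall in muscle did not have a detectably larger or smaller change in liver, with r between -0.44 and -0.05 over the 4 enzymes tested in liver (rho -0.43 to -0.07, permutation p between 0.0899 and 0.846, adjusted 0.359 to 0.846, and r between -0.29 and 0.18 without the 2 farthest cows). Within Fert+ cows r was between -0.57 and 0.16 and within Fert- cows between -0.22 and -0.12 (n = 8 each, no test).

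Names were known for only some genes, so 7 of the 21 other glycolytic enzymes listed were identified, and all 7 were called lower at EL than at LP in muscle, against 27.6% of all genes tested. The names came from the study's tables, mostly of genes with high or differing expression. The identified genes of this and the other lists were thus not chosen independently of these data, while the shares cover all genes tested, named or not. Their median log2 fold change was -0.79, against 0.01 over all genes tested. PGK1, the kinase 1 step before PGAM2, had a log2 fold change of -1.44 (SE 0.15), GPI, which isomerises glucose 6-phosphate, -1.11 (SE 0.12), and TPI1, which interconverts the triose phosphates, -1.08 (SE 0.12). The muscle aldolase ALDOA was at -0.79 (SE 0.11), phosphofructokinase PFKM at -0.57 (SE 0.10) and the other lactate dehydrogenase subunit LDHB at -0.50 (SE 0.09). With library totals the list median was -0.44 and 5 were called lower, against 8.82% of all genes. All 7 rose from EL to ML (6 with library totals), where 31.7% of all genes did (10.1% with library totals), and none passed between ML and LP, where 9.38% did.

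Glycogen feeds glycolysis in working muscle. Of the 16 genes of glycogen metabolism listed, 9 were identified, of which 7 fell at EL, 1 rose and 1 did not pass, against 27.6% of all genes called lower. PGM1, which makes glucose 6-phosphate from the phosphorylase product, had a log2 fold change of -0.999 (SE 0.12) and muscle glycogen phosphorylase PYGM -0.85 (SE 0.10). UGP2, which makes UDP-glucose for glycogen synthesis, went the other way with 1.02 (SE 0.10, adjusted p 2.04e-10), where 30% of genes were called higher (59.1% with library totals), and the muscle glycogen synthase GYS1 was at -0.02 (SE 0.08, adjusted p 0.831). The list median of -0.44 became -0.08 with library totals, under which 4 were called lower, against 8.82% of all genes, and 2 higher, against 59.1%.

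Of 15 genes listed for lactate, pyruvate and glycerol 3-phosphate handling, 9 were identified and 6 fell at EL, with none called higher. Over all genes tested 27.6% were called lower and 30% higher. With library totals 3 of the 9 were called lower and 2 higher, against 8.82% and 59.1% of all genes. Neither GPD1L nor GPD2 was among those identified, so the counts cover lactate and pyruvate handling and the fructose phosphates but no further gene of glycerol 3-phosphate. The pyruvate dehydrogenase subunits PDHA1 and PDHB were at -0.52 (SE 0.09) and -0.51 (SE 0.07), the mitochondrial pyruvate carriers MPC2 and MPC1 at -0.30 (SE 0.08) and -0.27 (SE 0.08), and FBP2, the muscle fructose bisphosphatase, at -0.65 (SE 0.12). SLC16A1, a lactate and pyruvate transporter, was at -0.01 (SE 0.12), and PFKFB3 and PFKFB4, which set the level of a strong activator of phosphofructokinase, were at 0.31 (SE 0.31) and 0.30 (SE 0.14), and none of these passed. The list median of -0.30 turned to 0.07 with library totals, so its direction depends on the scaling. PFKFB3 was lower at ML than at EL (log2 fold change -2.94, SE 0.34, adjusted p 1.86e-08) and than at LP (-2.63, SE 0.34, adjusted p 2.19e-05), while the 5 enzymes rose from EL to ML. From EL to ML 31.6% of genes were called lower. Between ML and LP 9.38% were called in either direction, with 4.3% called higher.

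**Figure D4:**
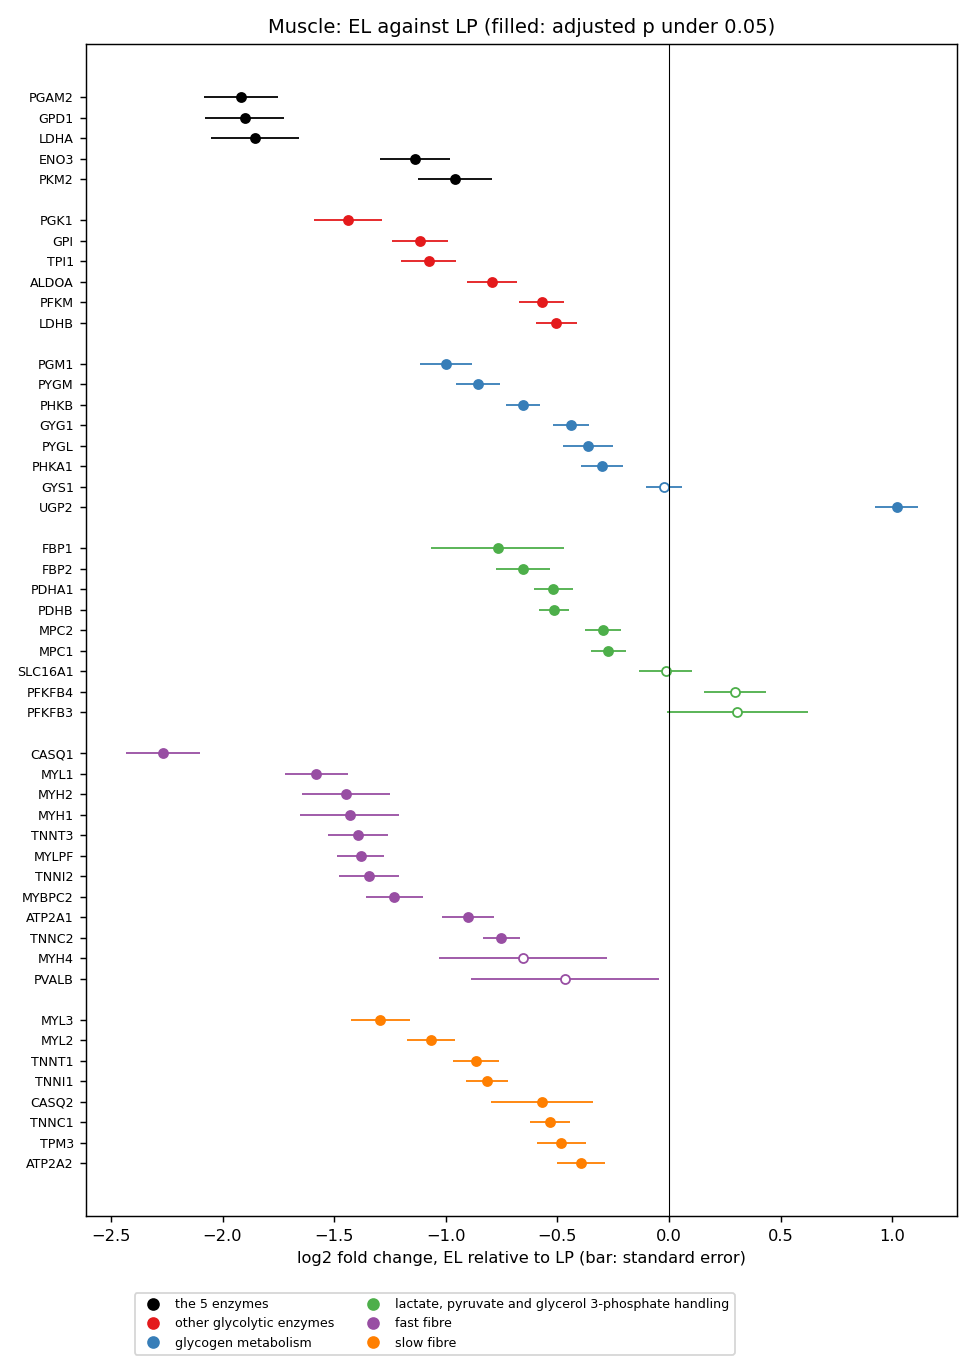
Log2 fold change from LP to EL in muscle for the 5 enzymes and for identified genes of 5 lists, as points with the standard error as bars (48 libraries of 16 cows), filled where the adjusted p was under 0.05. PGAM2, GPD1 and LDHA lie lower than every other gene drawn but CASQ1, and UGP2 is the filled point on the right.

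Genes of the contractile apparatus moved with the enzymes. Of 12 identified fast fibre genes 10 fell at EL, with a median log2 fold change of -1.36 (10 with library totals), and of 8 identified slow fibre genes 8 fell, with a median of -0.69 (5 with library totals). Over all genes tested 27.6% were called lower, and 8.82% with library totals. Among the fast genes the myosin heavy chains MYH1 and MYH2 were at -1.43 (SE 0.22) and -1.45 (SE 0.20), the light chains MYL1 and MYLPF at -1.58 (SE 0.14) and -1.38 (SE 0.11), and the calcium pump ATP2A1 at -0.90 (SE 0.12). Among the slow genes MYL3 was at -1.29 (SE 0.13), MYL2 at -1.07 (SE 0.11) and the slow troponins TNNT1, TNNI1 and TNNC1 at -0.87 (SE 0.10), -0.82 (SE 0.09) and -0.53 (SE 0.09). For the other slow genes the median went from 2885 CPM at LP to 2228 CPM at EL for ATP2A2 and from 2701 CPM to 1967 CPM for TPM3. For CASQ2 it went from 11.8 CPM to 9.10 CPM. Of the 6 skeletal muscle markers 5 fell (4 with library totals), ACTA1 by a log2 fold change of -2.19 (SE 0.21) and CKM of -1.09 (SE 0.10), and DES was at 0.06 (SE 0.08). The summed level of the fast genes ran from 103562 CPM to 160243 CPM at LP, from 10497 CPM to 135122 CPM at EL and from 138540 CPM to 221615 CPM at ML. The part of these fibre genes in the change of the enzymes was not tested.

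The 10 named genes most like the 5 enzymes were found among 1682 tested genes with a symbol, by Pearson's r over the 48 muscle libraries with the mean of the enzymes' standardised log2(CPM + 1). They were MYL1 (r = 0.99), TPM1 (0.97), MYBPC2 (0.97), CASQ1 (0.97), PGM1 (0.97), TNNT3 (0.97), TNNI2 (0.96), AK1 (0.96), G3PDH (0.96) and ACTA1 (0.96). The 5 enzymes themselves had r between 0.97 and 0.99, but each is part of the mean it was compared with. The libraries share cow, time-point and scaling, so these values are a description. G3PDH is the tables' spelling for ENSBTAG00000014731, a name in use for glyceraldehyde 3-phosphate dehydrogenase, and its log2 fold change from LP to EL was -0.73.

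The 3 identified connective tissue genes, COL1A1, DCN and LUM, also fell at EL (2 of 3 with library totals). Of all genes tested 27.6% were called lower at EL, and 8.82% with library totals. The summed level of these 3 genes ran from 167 CPM to 407 CPM at LP, 60.4 CPM to 264 CPM at EL and 175 CPM to 329 CPM at ML. The 3 identified adipocyte genes summed to between 1.84 CPM and 35.8 CPM at LP, 1.10 CPM and 33.3 CPM at EL and 3.43 CPM and 72.9 CPM at ML, and ADIPOQ fell at EL, a call lost with library totals. The endothelial gene VWF had a log2 fold change of 0.51 at EL and was called higher, as were 30% of all genes tested (59.1% with library totals). The 6 hepatocyte genes summed to at most 6.54 CPM at LP, 34.1 CPM at EL and 147 CPM at ML, and 4 of the 5 tested were higher at ML than at LP, where 4.3% of all genes were, and than at EL, where 31.7% were. The 1 erythroid gene identified was at most 5.86 CPM, and no leukocyte gene of the list was identified. The part of these cells in the results was not tested.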

How the data were processed

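The data were polyA RNA-seq counts (Illumina TruSeq v2) of 48 muscle and 48 liver biopsies. For each library the authors deposited raw counts of read pairs per Ensembl gene, made, per the labels and the study's methods, with CASAVA 1.8, Trimmomatic, STAR on UMD3.1, Samtools and featureCounts, with no normalization. A further pair of tables, with 96 count columns whose headers name no sample, was left out. Strand use in counting is not given in the sources used here, and reads that match more than 1 gene copy may be split.

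Tissue, time-point, genotype and cow came from the labels, and cows are the replicates. Libraries of the same cow deviated together from their group means (median r of residuals 0.25 in muscle and 0.25 in liver, against -0.03 and -0.04 between cows), and 0 of 336 library pairs within a group were identical. Time-points were compared with edgeR 4.0.16 (quasi-likelihood test, robust, TMM, filterByExpr, two-sided) over the 48 libraries of a tissue with each cow as a block and genotype by time terms, and genotypes over the 16 libraries of a time-point. P-values were adjusted by Benjamini-Hochberg over all genes, threshold 0.05. Permutation tests used log2(CPM + 1), with 100000 resamples where not exact. Programs were R 4.3.3, limma 3.58.1, DESeq2 1.42.0, Python 3.11.15, scipy 1.17.1, pandas 2.3.3 and numpy 2.4.6, and the fits were tested on simulated data. The alternatives were RLE factors, library totals, no gene filter, no robust estimation, no block, DESeq2, no libraries that stood apart and each cow left out. For genotypes they were also the exact test with a common dispersion and 48 libraries in 1 fit without a term for the cow.

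The enzymes, gene lists and tests were chosen with earlier results of these data known. Genes named were the 5 enzymes, up to 8 per pathway or fibre list by mean muscle CPM, and the 10 most alike. Symbols came from the study's tables, which name 2157 identifiers, mostly genes with high or differing expression, so list counts cover those genes only. MYL3, DES, VWF and the other markers came from marker lists. Some identified list genes are counted but not reported by name or drawn. Positions and sequences are not given here.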

Additional observations from a re-analysis of the deposited data

Results flagged for a closer look

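Of 54 groups of 8 cows checked for a cow far from the others (5 enzymes in muscle and 4 in liver, by time-point and genotype), 3 held one, about the number that chance gives at 1 in 20. All 3 were LDHA in liver of Fert- cows, and each was the highest of its group. Cow 426 had 78.6 CPM at LP with the next cow at 44.0 CPM, cow 419 had 122.7 CPM at EL with the next at 58.3 CPM, and cow 996 had 32.7 CPM at ML with the next at 19.0 CPM. They were different cows at each time-point, and in cow 426 LDHA was the lowest of the 16 cows at ML, at 9.50 CPM. The EL library of cow 419 is among the libraries that stood apart. No muscle group held such a cow, cow 1179 at EL included.

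The change from LP to EL differed between muscle and liver of the same cows for all 5 enzymes, tested by exact sign-flip tests. The muscle change minus the liver change in log2(CPM + 1) was -1.93 for PGAM2, -0.98 for ENO3, -1.12 for PKM2, -2.21 for LDHA and -1.69 for GPD1. PGAM2 in liver had at most 6 counts, so its difference is close to the muscle change itself.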

How the results depend on the processing

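The fall of the 5 enzymes from LP to EL in muscle and their rise to ML kept direction and call for every enzyme under all alternatives run, leaving out each cow included, with log2 fold changes from LP to EL between -0.62 (PKM2 with library totals) and -1.99 (PGAM2 without cow 1000). Fits without the cow as a block (cows are paired across time-points) also called 5 of 5 for both. Of all muscle genes these fits called 3143 lower from LP to EL and 3610 higher from EL to ML, against 3499 and 4022 with the block. Without the block PKM2 and ENO3 lost their calls from EL to ML in liver, leaving 1 enzyme called in place of 3, and GPD1 there turned from 0.019 to -0.052. Without the libraries that stood apart 1 enzyme was called between LP and ML in liver in place of 2, and LDHA between genotypes in liver at EL turned from -0.16 to 0.19. Leaving out single cows gave between 0 and 2 enzymes called between ML and LP in muscle, and DESeq2 gave 1. The numbers of all genes called in these liver refits and without single cows are not given here. Those enzyme counts were therefore not set against all genes. At EL the number of enzymes called between genotypes in muscle went from 0 to 5 by the exact test with a common dispersion. It went to 4 with 48 libraries in 1 fit without a term for the cow and to 1 by DESeq2. Over all genes the number went from 1 to 438, 566 and 119. With library totals GPD1 between genotypes turned to -0.0077 at LP and -0.0083 at ML in muscle, and LDHA in liver at LP to 0.0066. Over single cows left out, the genotype difference at LP ranged from -0.040 to 0.11 for GPD1 and from -0.081 to 0.15 for LDHA (both lowest without cow 430), that of GPD1 at ML from -0.015 (without cow 996) to 0.13, and the genotype by time term of GPD1 between ML and LP from -0.057 (without cow 996) to 0.16, none past the threshold. The causes were not tested. Genes called in muscle went with library totals from 3499 to 1118 lower and from 3804 to 7492 higher from LP to EL, and from 4022 to 1275 higher from EL to ML. Genes called from LP to EL in liver went from 424 to 0 without the libraries that stood apart (1807 at an unadjusted p under 0.05) and to 982 by DESeq2, and between ML and LP in muscle from 1189 to 771 without the block. The tissue difference at EL passed for all 5 enzymes under its 3 alternatives. Depth did not limit the muscle values, and in liver it limits PGAM2.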
